A study of Mus musculus with 282 samples.

Results

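Acute phase and antimicrobial proteins are made by epithelia and liver when tissue is infected or inflamed. The genes described here are Lcn2, Slpi, Reg3g, C3, Cfb, Pigr, Defb50, Defb1 and Hp, which were chosen by name. They are 9 of the 48440 gene rows in each of 2 count tables, and all 9 were found by their symbols. Of these, 8 had reads in at least 1 cell kept for analysis and 7 passed the filter on low counts.

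The samples are single cells sorted from male POET3 mouse prostates as basal prostate stem cells, with antibodies to CD45, CD31, Sca-1 and CD49f and a viability dye. POET3 mice are transgenic for ovalbumin in the prostate and serve as a prostatitis model. The groups are inflamed cells of batch 2 and batch 3 (85 and 78 cells) and naive cells of batch 2 and batch 3 (55 and 64 cells), and all of them come from POET3 mice. The study compared the conditions to learn how inflammation alters these cells. The sources used here do not give the sort gates, the way inflammation was raised, or the age and number of the mice.

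In epithelia these genes make up a shared line of defence. Lipocalin 2, SLPI, REG3 lectins and beta-defensins act on microbes or on proteases at the surface, complement C3 and factor B tag microbes in the fluid, and the polymeric immunoglobulin receptor carries antibodies across the cell. Cytokines such as interleukin 1, interleukin 6, interleukin 17 and tumour necrosis factor act on many of them through NF-kB, C/EBP and STAT factors, while some beta-defensins are made without a stimulus.

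Each kept cell had at least 1000 detected genes and at least 50000 counts, which left 80 and 76 inflamed cells and 53 and 59 naive cells of batches 2 and 3. Median depth was 1001872 and 998865 counts in inflamed and 971069 and 840863 counts in naive cells, and cells had a median of 4683 and 4109 detected genes against 4739 and 3432. Because cells are not replicates, reads were summed over the cells of each condition and batch, and levels are given as CPM, a gene's reads scaled to a common library size. All 10 basal markers, Krt5, Krt14 and Trp63 among them, had reads in each of the 4 sums, though not at equal levels. In both batches 5 were higher and 2 (Krt5 and Trp63) lower in inflamed sums, against 30.9% and 28.3% of all genes tested. Trp63 had reads in 53 of 80 and 58 of 76 inflamed cells and in 53 of 53 and 47 of 59 naive cells. Of 10 leukocyte markers, 9 were at 0 in each inflamed sum and 10 in each naive sum, with Ptprc (CD45), Tyrobp and Lyz2 at 0 in all. Of 10 neutrophil markers, 9 were at 0 in each sum, S100a8, S100a9, Camp, Mpo and Csf3r in all 4. The marker with reads differed between sums, Ltf and Ngp in inflamed and Elane and Retnlg in naive batches 2 and 3. Each had its reads in 1 cell. The neutrophil list summed to 16.3 and 0.618 CPM in inflamed and 3.67 and 1.58 CPM in naive sums. The 9 markers of proximal luminal cells summed to 13818 and 15658 CPM in inflamed sums against 1755 and 3370 CPM in naive sums. Clu alone had 10125 and 12008 CPM in inflamed against 72.7 and 1115 CPM in naive sums. Of the 9, 6 were higher and 1 (Cldn4) was lower in both batches, against 30.9% and 28.3% of all genes tested. The other 2, Psca and Ppp1r1b, were of opposite sign. The part of the summed difference in the results that follow was not tested. Secretory luminal markers summed to 2141 and 1687 CPM in inflamed against 1444 and 2252 CPM in naive sums, and stromal and endothelial markers, nearly all of it Dcn, to 3378 and 4435 CPM against 3969 and 4369 CPM.

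In both batches the summed level (CPM) of Lcn2, Slpi, Reg3g, C3 and Pigr was higher in inflamed than in naive cells, and that of the beta-defensins Defb50 and Defb1 was lower, although in batch 3 the median inflamed cell had more Defb1 than the median naive cell. Slpi and Reg3g were nearly absent from naive cells and stood at 28.6 CPM or more in inflamed sums, with reads in a minority of inflamed cells. Lcn2 was abundant in both conditions and 3.52-fold and 1.55-fold higher in inflamed batches 2 and 3. Defb50 was 5.13-fold and 3.30-fold lower in inflamed cells of those batches. No gene passed after adjustment, so these are differences between 2 pairs of sums.

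edgeR's quasi-likelihood test, with batch in the model, called 0 of the 7 tested members, as it called 0 (0%) of all 14713 genes tested at an adjusted p under 0.05. At an unadjusted p under 0.05, 3 members were higher, where 5.04% of all genes were, and 1 was lower, where 3.23% of all genes were. DESeq2 on the same sums called 5 of the 7, with Lcn2 and Defb1 not called, and 927 genes higher and 534 lower over all. Both inflamed sums lay above both naive sums for 5 of the 7, where 24.3% of all genes tested did, and below them for 2, where 21.3% did. Slpi, Reg3g and Pigr passed the low-count filter through their inflamed sums, since fewer than 2 of their naive sums reached its minimum of 0.153 CPM, and Cfb did not pass, so that these counts lend no support of their own. Over the 7 the median log2 fold change was 5.01, against 0.10 over all genes tested. That median includes Slpi, Reg3g and Pigr, so it lends no support of its own either. With 2 batches, 1 residual degree of freedom stands behind each p-value, and the labels do not say that a batch is a separate set of mice.

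**Figure D1:**
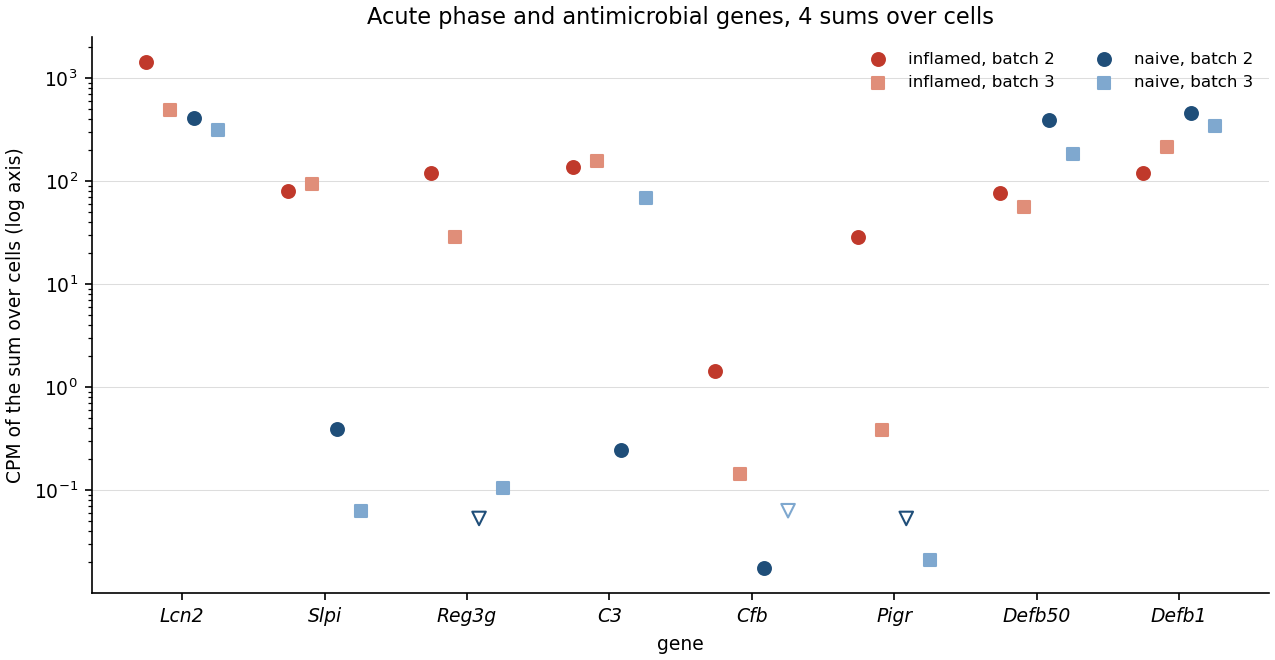
CPM on a log axis of the 8 members with reads in the 4 sums over cells, inflamed sums in red and naive sums in blue, batch 2 as circles and batch 3 as squares. Open triangles mark sums with 0 reads, drawn at the level of 3 counts. Slpi and Reg3g stand at 28.6 to 122.01 CPM in inflamed sums and under 1 CPM in naive sums, while Defb50 and Defb1 are higher in both naive sums.

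The stretches around the transcription start were sought for all 9 members, and those available were read whatever the direction of the difference. RefSeq (GRCm38.p6) gave promoters from 250 bases before to 50 bases after the start for 5 of the 9 members, Lcn2, Slpi, Reg3g, C3 and Pigr. These were searched on both strands for an NF-kB motif of 10 letters, a STAT motif (TTCNNNGAA), a C/EBP motif (TTGCNNAA) and an interferon-response motif (2 GAAA blocks with 2 bases between them), with no overlap between the matches found. A C/EBP match was found in Lcn2, Slpi and C3, starting 216, 241 and 45 bases upstream of the start, where 10.8% of all 32851 promoters of this length hold the motif. An NF-kB match lay upstream of the start in Reg3g (8.46% of all promoters) and a STAT match 39 bases downstream in Pigr (8.30%). The interferon-response motif, held by 3.44% of all promoters, had no match in the 5. A match is a string of letters and not a shown site. Promoters of 3 members follow, one with a C/EBP match far from the start, one with an NF-kB match and one with a C/EBP match close to the start, each 5′ to 3′ on the minus strand with the match in capitals.
Lcn2, chr2:32387690-32387989: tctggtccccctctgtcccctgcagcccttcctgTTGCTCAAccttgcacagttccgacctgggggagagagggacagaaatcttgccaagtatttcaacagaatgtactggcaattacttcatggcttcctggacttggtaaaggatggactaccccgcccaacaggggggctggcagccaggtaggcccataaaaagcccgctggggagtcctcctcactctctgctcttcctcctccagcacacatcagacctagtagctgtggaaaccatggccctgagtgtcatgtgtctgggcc
Reg3g, chr6:78468825-78469124: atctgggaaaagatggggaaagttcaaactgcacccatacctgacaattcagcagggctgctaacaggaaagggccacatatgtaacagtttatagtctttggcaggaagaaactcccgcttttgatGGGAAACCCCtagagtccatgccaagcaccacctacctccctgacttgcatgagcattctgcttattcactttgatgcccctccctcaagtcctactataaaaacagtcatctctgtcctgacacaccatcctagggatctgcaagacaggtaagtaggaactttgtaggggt
C3, chr17:57228087-57228386: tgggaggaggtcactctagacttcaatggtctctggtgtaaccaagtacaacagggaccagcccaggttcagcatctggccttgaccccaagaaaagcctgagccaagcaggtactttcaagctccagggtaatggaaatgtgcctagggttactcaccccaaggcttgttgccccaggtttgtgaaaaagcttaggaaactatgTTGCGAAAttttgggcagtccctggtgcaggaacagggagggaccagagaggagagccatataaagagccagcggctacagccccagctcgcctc

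Lcn2 encodes lipocalin 2, which binds bacterial siderophores and so withholds iron (ENSMUSG00000026822, GRCm38 chromosome 2, 32384633 to 32388252, minus strand). It stood at 1444 CPM in inflamed batch 2 and 494 CPM in inflamed batch 3, against 410.1 CPM in naive batch 2 and 318 CPM in naive batch 3. Both inflamed sums were above both naive sums, and the inflamed sum of batch 3 was closer to the naive sums than to that of batch 2. The log2 fold change was 1.22 ± 0.42 (SE, n = 2 sums per condition, unadjusted p = 0.0486 and adjusted p = 0.568 by edgeR). In batch 2 nearly every cell had a read, 79 of 80 inflamed and 52 of 53 naive, and in batch 3 84.2% (74.04 to 91.6) of inflamed and 79.7% (67.2 to 89.02) of naive cells did. At 5 reads or more the shares were 85% and 75% of inflamed and 79.2% and 52.5% of naive cells. The median cell had 680 CPM in inflamed batch 2 and 244 CPM in inflamed batch 3, against 105.7 and 8.71 CPM in naive cells. Within every group the cells spread widely, with highest values of 12612 and 4726 CPM in inflamed and 4436 and 2270 CPM in naive cells. No cell gave over 11.8% of the reads of an inflamed sum or over 19.1% of those of a naive sum.

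Slpi encodes the secretory leukocyte peptidase inhibitor, which blocks neutrophil elastase and kills bacteria (ENSMUSG00000017002, chromosome 2, 164354070 to 164389095, minus strand). It had 6363 and 7171 reads in the inflamed sums of batches 2 and 3, or 80.7 and 94.3 CPM, against 22 and 3 reads in the naive sums, or 0.390 and 0.0632 CPM. The inflamed sums were close to each other and far above the naive ones, and the log2 fold change was 8.95 ± 1.35 (SE, n = 2 sums per condition, unadjusted p = 0.00361 and adjusted p = 0.568 by edgeR). All 22 reads of naive batch 2 came from 1 cell. A read was found in 30% of inflamed cells of batch 2 (95% interval 20.3 to 41.3) and 19.7% of batch 3 (11.5 to 30.5), against 1.89% (0.0478 to 10.1) and 5.08% (1.06 to 14.1) of naive cells. With at least 5 reads required, the shares were 13.8% and 14.5% of inflamed and 1.89% and 0% of naive cells. These intervals, and those given for other genes, cover counting error only. The 5 highest cells held 79.5% and 92.2% of the reads of inflamed batches 2 and 3, and 1 cell alone held 33.1% and 40.3%.

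Reg3g encodes a secreted C-type lectin that kills Gram-positive bacteria and is best known from the gut (ENSMUSG00000030017, chromosome 6, 78466269 to 78468872, minus strand). Inflamed sums held 9618 and 2177 reads, or 122.01 and 28.6 CPM, and naive sums 0 and 5 reads, or 0 and 0.105 CPM. Set against a floor of 3 counts for the naive sum, batch 2 was at least 2295-fold higher, and batch 3 was 271.8-fold higher on 5 naive reads, of which 4 were in 1 cell. Its log2 fold change was 10.44 ± 2.44 (SE, n = 2 sums per condition, unadjusted p = 0.0156 and adjusted p = 0.568 by edgeR), a value that depends on the prior count where a sum is 0. Its reads lay in 26 of 80 inflamed cells of batch 2 (32.5%, 22.4 to 43.9) and 10 of 76 of batch 3 (13.2%, 6.49 to 22.9). Among naive cells they were found in 0 of 53 (up to 6.72%) and in 2 of 59 (3.39%, 0.413 to 11.7), with no naive cell at 5 reads or more. Of the inflamed reads, 81.2% and 93.2% came from 5 cells, so the level of the sums describes few cells.

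**Figure D2:**
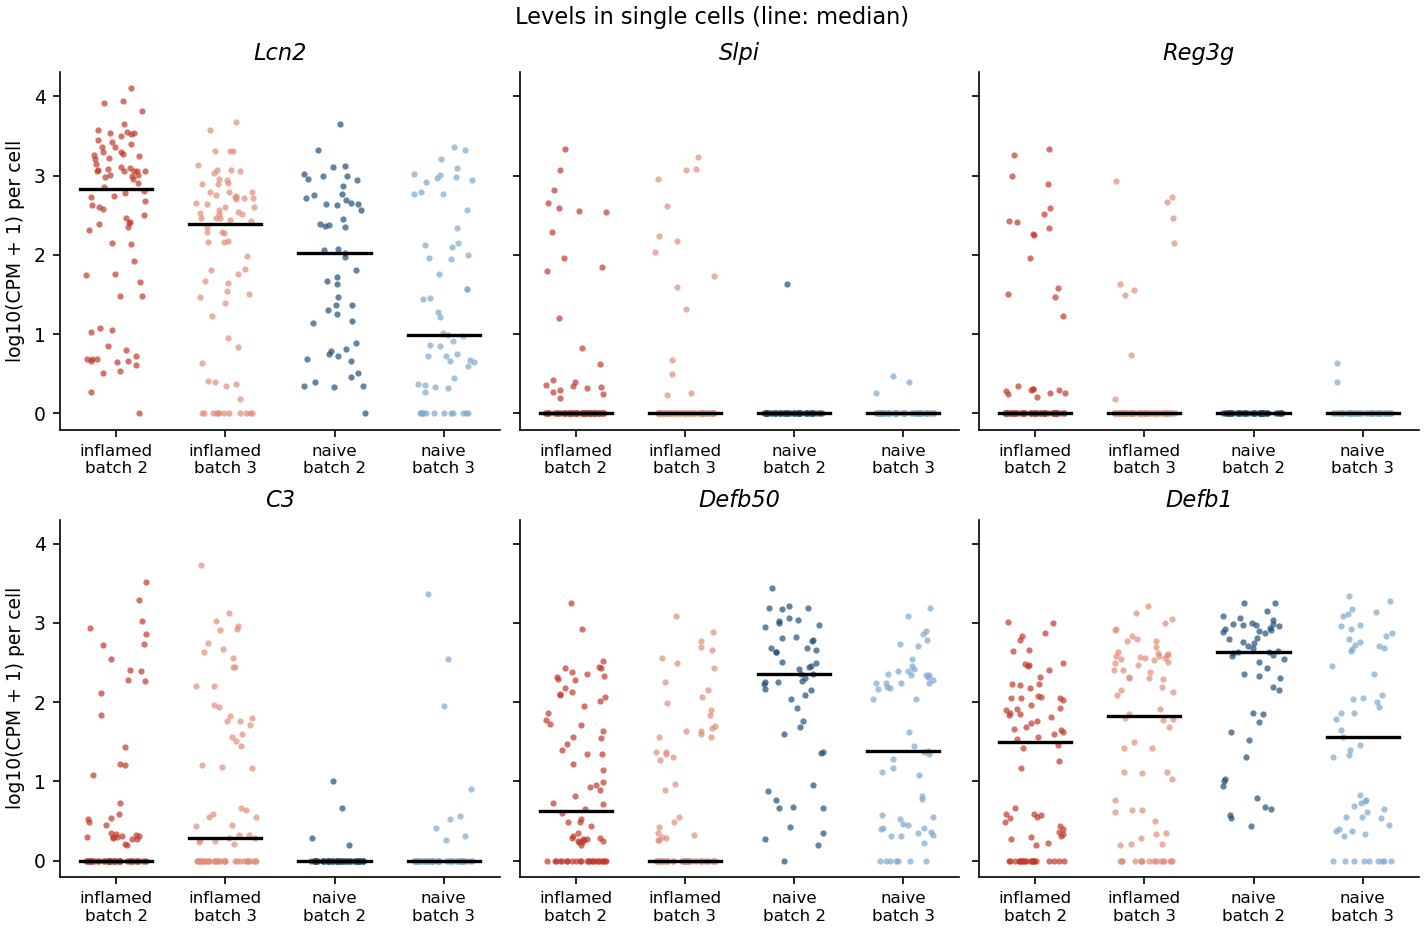
Level of 6 members in each kept cell as log10(CPM + 1), with 1 point per cell and a line at the median, for inflamed batches 2 and 3 and naive batches 2 and 3. Lcn2 has medians of 680 and 244 CPM in inflamed against 105.7 and 8.71 CPM in naive cells, while Slpi and Reg3g have a median of 0 in every group with a tail of high inflamed cells.

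C3 is the central complement component, whose cleavage tags microbes for uptake, and Cfb encodes factor B, the protease that joins it in the alternative pathway. C3 (ENSMUSG00000024164, chromosome 17, 57203970 to 57228136, minus strand) had 138.2 and 158.8 CPM in inflamed sums, against 0.248 CPM in naive batch 2 and 68.9 CPM in naive batch 3. The inflamed sums were alike and the naive ones were not, and 1 cell gave 88.5% of the reads of naive batch 3. The log2 fold change was 5.01 ± 3.13 (SE, n = 2 sums per condition, unadjusted p = 0.191 and adjusted p = 0.740 by edgeR), from 557-fold in batch 2 and 2.31-fold in batch 3. Without batch in the model the log2 fold change was 2.10, and with all deposited cells it was 4.24. With the highest cell left out of every sum, the inflamed sums stood at 96.97 and 90.99 CPM and the naive sums at 0.0886 and 7.94 CPM, or 1094-fold and 11.5-fold. Counting cells avoids that weight: reads were found in 46.2% (35.03 to 57.8) and 56.6% (44.7 to 67.9) of inflamed cells, against 7.55% (2.09 to 18.2) and 15.3% (7.22 to 26.99) of naive cells. At 5 reads or more the shares were 22.5% and 36.8% of inflamed and 1.89% and 6.78% of naive cells.

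Cfb (ENSMUSG00000090231, chromosome 17, 34856374 to 34862518, minus strand) had 1.43 and 0.145 CPM in inflamed sums against 0.0177 and 0 CPM in naive sums, too few to pass the low-count filter. Without that filter its log2 fold change was 6.24 with an SE of 2.70 (unadjusted p = 0.0803 and adjusted p = 0.658 by edgeR), on 1 and 0 naive reads. Its reads came from 5 of 80 and 2 of 76 inflamed cells and from 1 of 53 and 0 of 59 naive cells. The count is uncertain, because the exons of the readthrough gene Gm20547 overlap 79.5% of the exonic bases of Cfb on the same strand. Of the 50-base windows of Cfb transcripts, 73% also lie in transcripts of Gm20547, which itself had 0 reads in all 4 sums. The sources used here do not say how reads shared by 2 genes were counted.

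Pigr encodes the receptor that carries dimeric IgA and pentameric IgM through epithelial cells into secretions (ENSMUSG00000026417, chromosome 1, 130826684 to 130852249, plus strand). Its sums were 2259 and 29 reads in inflamed batches 2 and 3, or 28.7 and 0.381 CPM, against 0 and 1 reads in naive batches. A single cell gave 2078 of the 2259 reads of inflamed batch 2 (91.99%), and with the highest cell left out of every sum Pigr no longer passed the low-count filter. A log2 fold change of 8.17 with an SE of 4.01 (n = 2 sums per condition, unadjusted p = 0.118 and adjusted p = 0.657 by edgeR) is to be read with that in view. Reads were present in 8 of 80 and 3 of 76 inflamed cells and in 0 of 53 and 1 of 59 naive cells, or 10% (4.42 to 18.8), 3.95% (0.822 to 11.1), 0 (up to 6.72) and 1.69% (0.0429 to 9.09). The intervals of inflamed and naive cells overlapped in both batches, as those of Slpi and Reg3g did in batch 3.

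**Figure D3:**
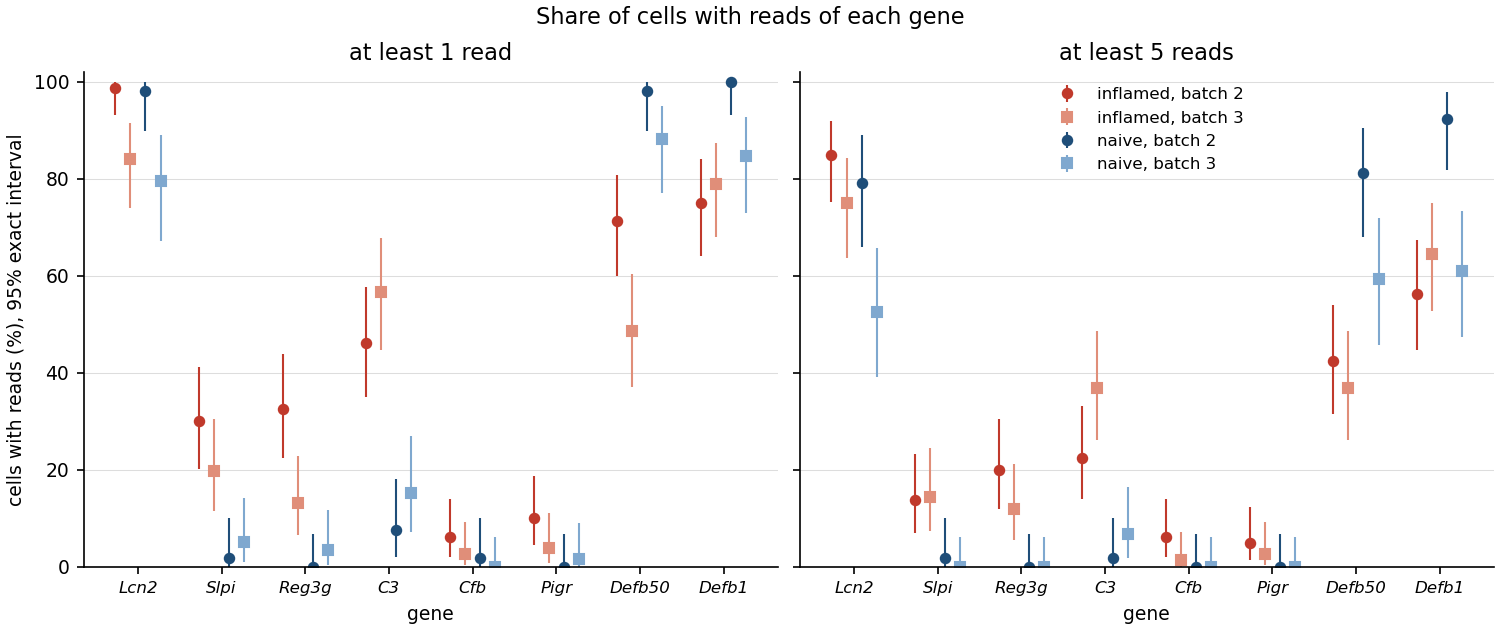
Percent of kept cells with at least 1 read (left) and at least 5 reads (right) of the 8 members, with 95% exact intervals, for inflamed cells in red and naive cells in blue. C3 reaches 46.2% and 56.6% of inflamed against 7.55% and 15.3% of naive cells, and Defb50 71.2% and 48.7% of inflamed against 98.1% and 88.1% of naive cells at 1 read.

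Defb50 and Defb1 encode beta-defensins, short cationic peptides that disrupt microbial membranes, and lie near each other on the plus strand of chromosome 8 (Defb1, ENSMUSG00000044748, 21776599 to 21795185, and Defb50, ENSMUSG00000058568, 21823539 to 21831296). Neither shares a 50-base window with transcripts of another gene, so reads of the length sequenced could be told apart. Defb50 had 77.6 and 56.3 CPM in inflamed sums, against 397.8 CPM in naive batch 2 and 185.7 CPM in naive batch 3. Both inflamed sums were below both naive sums, and the log2 fold change was -2.04 ± 0.40 (SE, n = 2 sums per condition, unadjusted p = 0.00859 and adjusted p = 0.568 by edgeR). The share of cells with a read was 71.2% (60.05 to 80.8) and 48.7% (37.0 to 60.4) of inflamed and 98.1% (89.9 to 100.0) and 88.1% (77.1 to 95.1) of naive cells. Its median cell had 3.23 and 0 CPM in inflamed batches 2 and 3, and 222 and 23.4 CPM in naive batches 2 and 3. Defb50 was thus lower in the sums, in the median cell and in the share of cells in both batches.

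Defb1 had 120.4 and 214 CPM in inflamed sums, against 459.8 and 343 CPM in naive sums. The inflamed sums were both below the naive ones, 3.82-fold in batch 2 and 1.601-fold in batch 3, and the log2 fold change was -1.31 ± 0.46 (SE, n = 2 sums per condition, unadjusted p = 0.0527 and adjusted p = 0.568 by edgeR). Over cells, the batches did not show the same thing. In batch 2 the median cell had 30.3 CPM among inflamed and 425.5 CPM among naive cells, and the share with a read was 75% (64.1 to 84.01) against 100% (93.3 to 100). Batch 3 had a median of 66.2 CPM in inflamed cells and 35.7 CPM in naive cells, with shares of 78.9% (68.1 to 87.5) and 84.7% (73.01 to 92.8), so there the lower inflamed sum came with a higher median cell. Naive cells of batch 3 were spread from 0 to 2192 CPM, and inflamed cells from 0 to 1643 CPM.

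Hp encodes haptoglobin, which binds free haemoglobin and is a liver acute phase protein (ENSMUSG00000031722, chromosome 8, 109575128 to 109579172, minus strand). It had 0 reads in all 4 sums, and the exact 95% intervals of the share of cells with a read reached up to 4.51% and 4.74% of inflamed and 6.72% and 6.06% of naive cells. None of its exonic bases overlap another gene of the tables.

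**Figure D4:**
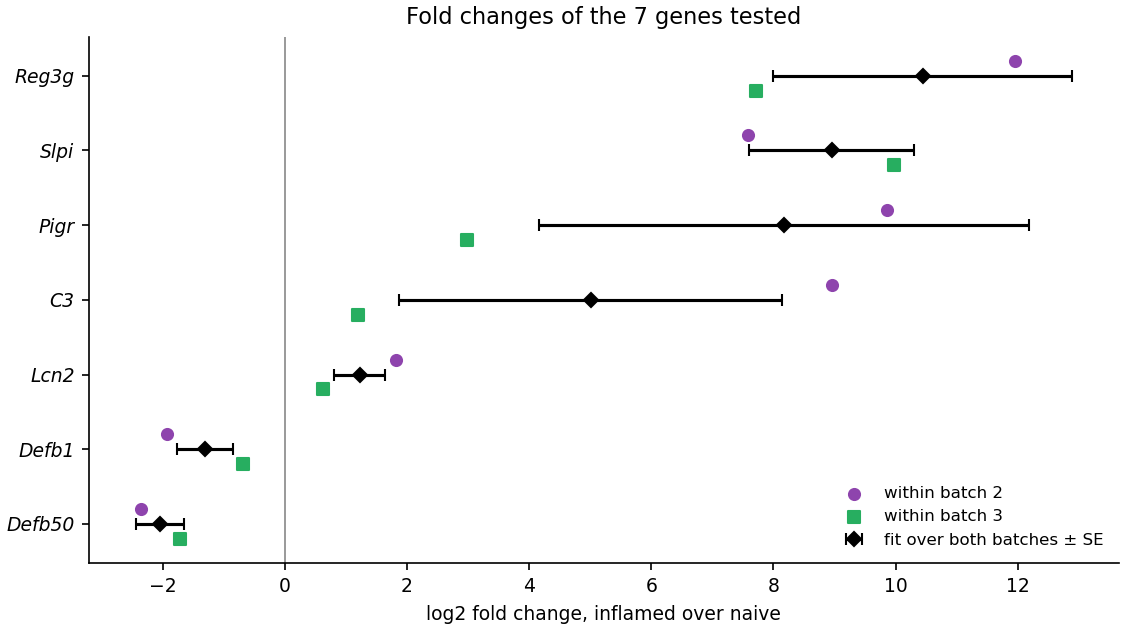
Log2 fold change of inflamed over naive for the 7 tested members, as the fit over both batches with its SE (black) and within batch 2 (purple) and batch 3 (green). C3 and Pigr have the widest spread between batches, 8.95 and 1.21 for C3 and 9.86 and 2.99 for Pigr, and all 7 keep their side of 0 in both batches.

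Per kilobase of exon, the order of the members differed between conditions. The length took in all annotated exons of a gene, 2623 bases from 24 exons for Lcn2 and 872 bases from 2 exons for Defb1. A level per kb is understated where that length exceeds the transcript present, so the order depends on it. In naive sums Defb50 came first (1066 and 498 CPM per kb), then Defb1 (527 and 393) and Lcn2 (156.4 and 121.4), and no other member was above 13.4 CPM per kb. In inflamed batch 2 Lcn2 came first at 551 CPM per kb, followed by Defb50 at 208, Defb1 at 138.03, Slpi at 68.4, Reg3g at 57.7 and C3 at 26.9. In inflamed batch 3 Defb1 led at 246 CPM per kb, with Lcn2 at 188.2, Defb50 at 151.01, Slpi at 79.9, C3 at 30.9 and Reg3g at 13.5. The first 3 places differed between the inflamed batches, so their order there is not settled by these sums. In CPM, without the length, Lcn2 came first in both inflamed sums (1444 and 494) and Defb1 in both naive sums (459.8 and 343).

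Most cells had reads of several members, with a median of 4 and 3 of the 9 in inflamed and 3 and 3 in naive cells of batches 2 and 3. Reads of 5 or more members were present in 19 of 80 and 10 of 76 inflamed cells (23.8% and 13.2%), against 0 of 53 and 3 of 59 naive cells. Of inflamed cells with a Reg3g read, 11 of 26 in batch 2 and 4 of 10 in batch 3 also had a Slpi read, and 24 of 80 and 15 of 76 inflamed cells had one in all. Defb50 and Defb1 had a Spearman correlation of CPM per cell of 0.44 and 0.18 over the 80 and 76 inflamed cells and 0.28 and 0.18 over the 53 and 59 naive cells. Lcn2 and Slpi had 0.04 and 0.07 over inflamed cells. Correlations are descriptions over cells that share a library batch and differ in depth.

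By a fixed rule, the genes most like a member were those with the highest value of the lower correlation of the 2 inflamed batches, among 5978 genes with reads in at least 20% of the inflamed cells of each. Mmp7 was most like Defb1 (0.43 and 0.44), followed by Sec61b (0.43 and 0.31) and Gm5870 (0.38 and 0.30). For Lcn2 they were Shisa5 (0.35 and 0.33), Ccs (0.29 and 0.42) and Vcam1 (0.34 and 0.28). C3 was followed most closely by Ppp1r15b (0.34 and 0.41), Nfyb (0.37 and 0.28) and Nap1l1 (0.27 and 0.28). Slpi, Reg3g, Cfb, Pigr and Hp had reads in too few inflamed cells for this. These correlations were picked as the highest of 5978 genes and no reference level was computed, so they do not show shared control.

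Of 20 other acute phase genes (Saa3, Orm1, Cp, Lbp and others), 11 had no reads in any sum, as had 25508 of all 48440 gene rows. Cp stood at 1746 and 2093 CPM in inflamed and 1462 and 1408 CPM in naive sums. Tested were 5, with 4 above and 1 below the naive sum in each batch, where 30.9% and 28.3% of all genes tested were. Of those 4, 2 (Orm1 and Lrg1) passed the low-count filter through the inflamed sums alone, which fixed their direction, and Lbp differed by 0.0033 on the log2 scale in batch 3. Orm1, orosomucoid 1, had 4.41 and 4.60 CPM in inflamed sums against 0 and 0.0211 CPM in naive sums (unadjusted p = 0.0384 by edgeR), from 4 of 80 and 5 of 76 inflamed cells, with 43.1% and 78.6% of the reads from 1 cell. Lrg1, a leucine-rich glycoprotein, had 38 and 78 reads in inflamed sums and 0 in both naive sums (unadjusted p = 0.0481 by edgeR), and all 78 came from 1 cell. Serum amyloid genes Saa1, Saa2 and Saa3 had 0 reads.

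Other antimicrobial genes numbered 30, of which 16 had no reads, where 25508 of all 48440 gene rows had none. Tested were 8, 5 of them higher in both batches (30.9% of all genes tested were) and 3 of opposite sign. Of those 5, 3 (Pglyrp1, S100a7a and Lpo) passed the low-count filter through the inflamed sums alone. Wfdc2, a relative of Slpi by its whey acidic protein domain, stood at 120.6 and 63.5 CPM in inflamed against 0.301 and 2.15 CPM in naive sums (log2 fold change 6.72, unadjusted p = 0.0142 by edgeR). Its reads were found in 55% (43.5 to 66.2) and 40.8% (29.6 to 52.7) of inflamed cells and in 3.77% (0.46 to 12.98) and 8.47% (2.81 to 18.7) of naive cells. Wfdc2 also stands among the proximal luminal markers.

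For complement, 10 of 19 other genes were tested, 7 of them higher in both batches (30.9% of all genes tested were) and 3 of opposite sign. Of those 7, 4 (C1s1, C2, Cfp and Serping1) passed the low-count filter through the inflamed sums alone, so that the count and the median are no support of their own. Serping1, the inhibitor of the C1 proteases, had 959 and 6569 reads (12.2 and 86.4 CPM) in inflamed sums and 0 in both naive sums (unadjusted p = 0.00754 by edgeR). Those reads lay in 10 of 80 and 31 of 76 inflamed cells, with 56.1% and 18.3% of the reads from 1 cell. Clu, clusterin, an extracellular chaperone that also restrains the terminal complex, had 10125 and 12008 CPM in inflamed sums against 72.7 and 1115 CPM in naive sums (unadjusted p = 0.016 by edgeR). In naive batch 3, 55.02% of the Clu reads came from 1 cell. The median log2 fold change of the 10 was 4.60, and no test was run on the list.

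Of 7 genes for partners and receptors of these proteins, such as the lipocalin receptor Slc22a17 and the haptoglobin receptor Cd163, 2 were tested and neither had an unadjusted p under 0.05 by edgeR. Of 24 genes for cytokine receptors and factors that act upstream, 23 were tested, with 11 above and 4 below the naive sum in each batch, against 30.9% and 28.3% of all genes tested. Socs3, among the 11, and Il17rb, of opposite sign, passed the low-count filter through the inflamed sums alone, as did Slc22a17. An unadjusted p under 0.05 by edgeR was reached by 4, all higher, where 5.04% of all genes were higher, and the median log2 fold change of the 23 was 0.59. Irf1, an interferon-induced factor, had 287 and 873 CPM in inflamed against 62.7 and 172.6 CPM in naive sums (p = 0.00251, unadjusted, by edgeR). Osmr, the oncostatin M receptor chain, had 227 and 109.7 CPM in inflamed against 31.4 and 18.4 CPM in naive sums (p = 0.00521, unadjusted, by edgeR), with 43.8% and 43.1% of the naive reads from 1 cell. Il1r1, the interleukin 1 receptor, had 97.2 and 132.7 CPM in inflamed against 0.301 and 6.82 CPM in naive sums, with 98.1% of the reads of naive batch 3 from 1 cell. Ifngr1, an interferon gamma receptor chain, had 189.7 and 277 CPM in inflamed against 70.3 and 102.01 CPM in naive sums (p = 0.0191, unadjusted, by edgeR), with 49.1% and 55.4% of the naive reads from 1 cell. None of these genes passed after adjustment over all genes (adjusted p of 0.568 or more by edgeR).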

How the data were processed

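The authors deposited 2 tables, 1 for each batch, of raw counts by gene (rows) and cell (columns), from 50-base single-end reads of Fluidigm C1 SMARTer libraries, per the labels' protocols. TopHat2, HTSeq, R 3.4.1, Seurat 1.4 and the build GRCm38.p6 are named, without roles, per the submitters' processing notes. The libraries carry no molecular tags, so amplified copies count as reads, and no strand setting is given in the sources used here. Rows that name no gene numbered 0. Symbols and coordinates came from GENCODE M21 (GRCm38), in which 48058 of 48440 identifiers matched.

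A cell was kept if it had 1000 detected genes and 50000 counts or more, so that 14 of 282 dropped out, and no 2 cells had identical counts. Total counts ran from 2725 to 2219764 per deposited cell. No doublet caller was run. The kept cells were added up by condition and batch into 4 sums, which were tested with edgeR 4.0.16 in R 4.3.3 (TMM factors, filterByExpr by condition, quasi-likelihood F test, condition and batch in the model, Benjamini-Hochberg over 14713 genes). The SE is the log2 fold change divided by the square root of F. Within-batch log2 folds came from log CPM (prior count 2), and linear folds are ratios of CPM on the TMM scale. The batch that the labels name pairs the sums. The deviations of inflamed and naive sums between batches had a correlation of -0.011 across genes. Shares of cells have exact Clopper-Pearson intervals at 95%. DESeq2 1.42.0, other scalings, filters and cell sets were run as alternatives, and the fit was tested on simulated data. The genes and gene lists were chosen with earlier results of these data known. Named genes are all 9 members, the up to 4 genes per list with the smallest unadjusted p under 0.05 and 1 direction in both batches, and the 3 genes most correlated with each member found in at least 20% of inflamed cells of both batches. The genes most like Defb50 are not reported here.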

Additional observations from a re-analysis of the deposited data

Results flagged for a closer look

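Cells left out for low depth or few detected genes held more than 3 reads of 2 members at a level above both naive sums. Only the alternatives with all deposited cells used these cells. Reg3g (1 and 2 reads in inflamed batches 2 and 3) and Slpi (2 reads in inflamed batch 2) were also above, on fewer reads. The 5 left-out inflamed cells of batch 2 had 51 Lcn2 reads of 108226, or 471 CPM. The 2 left-out naive cells of batch 2 had 81 Lcn2 reads of 73413, or 1103 CPM, and 33 C3 reads, or 449.5 CPM. These CPM are per total count, and on that scale the kept naive sums of batches 2 and 3 had 444.6 and 301.6 CPM of Lcn2 and 0.269 and 65.3 CPM of C3. All 33 C3 reads and 79 of the 81 Lcn2 reads came from the same cell, which thus held more C3 reads than the 53 kept naive cells of that batch together (14).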

How the results depend on the processing

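Under edgeR with other scaling factors, without the low-count filter, with all deposited cells, with a stricter cell filter or with thinned cells, all 7 log2 fold changes kept their sign and none was called, and 0 genes were called higher or lower in any of these fits. With all deposited cells the largest move was that of C3, to 4.24 against 5.01, and with thinned cells that of Slpi, to 8.17 against 8.95. With only genes found in at least 20% of kept cells, 4 members were tested (Lcn2, C3, Defb50 and Defb1), with the same outcome. DESeq2 called 927 genes higher and 534 lower, among them Slpi (log2 fold change 8.92), Reg3g (10.52), C3 (5.09), Pigr (8.57) and Defb50 (-2.05). Their adjusted p under DESeq2 ran from 1.36e-19 to 0.00348, against 0.226 to 0.788 for the members over the edgeR alternatives with a test, and the cause was not tested. The median log2 fold change of all genes was 0.21 without the low-count filter and -0.04 without batch, against 0.10. With no replicate block, that is, without pairing by batch, 0 genes were called and C3 had 2.10 and Pigr 10.24. Leaving out a batch gave 0.63 to 1.82 for Lcn2, 7.58 to 9.97 for Slpi, 7.72 to 11.95 for Reg3g, 1.21 to 8.95 for C3, 2.99 to 9.86 for Pigr, -2.36 to -1.72 for Defb50 and -1.93 to -0.68 for Defb1, with no test. Leaving out the highest cell of each member gave 1.34 for Lcn2, 11.81 for Reg3g, 11.55 for Slpi and 6.58 for C3, and Pigr was not tested. Of 32 shares of cells, 21 moved beyond their interval at 5 reads or more, 1 after thinning to 500000 counts and 0 with all deposited cells. Sums with 0 to 5 naive reads limit the folds of Reg3g, Slpi and Pigr.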
